A study of Mus musculus with 9 samples.

Results

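The midbrain of Gpr161 conditional knockout fetuses (cKO) was compared with that of the Cre control by poly-A selected RNA sequencing, over all genes of the table that carry a name. The cKO genotype is Gpr161f/f;Wnt1-Cre, spelt Gpt161f/f in the labels' titles. The Cre control is Gpr161f/+;Wnt1-Cre. Both groups are C57BL/6 mice at E13.5 of gestation, and both carry the Wnt1-Cre transgene, so the groups differ by the second floxed copy of Gpr161. The comparison used 6 of the 9 libraries of the series, 3 per group, and 14029 genes were tested of the 27360 rows of the table. The floxed control, with no Cre, was not compared. Its libraries served to choose the genes tested and to estimate the spread, and entered the alternative fits with a correction or covariate. The study saw reporter activity of this Cre in the mesencephalon, the pharyngeal arches and cranial ganglia, and a dissected midbrain also holds cells, such as those of blood and vessels, that are not of this lineage. The labels do not tie each library to 1 fetus or litter, so the p-values measure the spread between these samples, which may in part be technical.

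Gpr161 is a G protein-coupled receptor of the primary cilium that holds back Sonic hedgehog (Shh) signaling by keeping cyclic AMP and protein kinase A active, which favours the repressor form of the Gli transcription factors. When Shh signaling is on, Gli activators switch on a small set of direct targets, among them Gli1 itself, the receptor Ptch1 and the decoy receptor Hhip. In the midbrain, Shh comes from the ventral midline, while Fgf8 and Wnt1 at the isthmus, the border with the hindbrain, pattern the tectum and keep its progenitors dividing.

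The deleted gene itself, Gpr161 (chromosome 1, 165295789 to 165326745 in GRCm38, whole locus in GENCODE M21), was at a log2 value of 11.77, 11.91 and 11.96 in Cre controls 1 to 3 and of 11.74, 11.95 and 11.94 in cKO 1 to 3. The groups overlapped and the log2 fold change was 0.00 (standard error 0.0654, adjusted p = 0.998 by limma). With a single value for the whole gene, the deleted exon is not seen apart from the rest, so this level does not check the labels, and cKO below means the libraries labelled so.

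Values are log2 levels that the authors had normalized between libraries and that are shrunk at low expression, so fold changes of weakly expressed genes are understated. As no read counts were at hand, library depth is unknown. Turned back to a linear scale, the values summed to between 26609942 and 27496648 over the 6 libraries. Cre control 1 stood apart from its group, with distances (1 minus Spearman's correlation) of 0.0041 and 0.00499 to Cre controls 3 and 2, which were 0.00155 from each other. The cKO libraries were between 0.00136 and 0.00214 from each other.

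Of 9 marker lists of other cells or tissues, 5 did not overlap between the groups, those of red blood cells, surface ectoderm, endothelium, neural crest and forebrain. Among single genes tested, all cKO libraries were above all Cre control libraries in 17.8% and below them in 13.7%. A lack of overlap is thus common with 3 libraries per group. The 21 erythroid genes found in the table summed to linear values between 186317 and 214119 in the Cre control and to 416055, 241440 and 464349 in cKO 1, 2 and 3, so that cKO 2 was close to the Cre control. The genes of the surface ectoderm, a list chosen after the values were seen, summed to 2509, 5799 and 4055 in Cre controls 1 to 3 and to between 5958 and 6763 in the cKO. They held between 0.00951% and 0.025% of all linear values, while the erythroid genes held between 0.689% and 1.7%. The microglia, choroid plexus and hindbrain lists overlapped between the groups, with ranges of 8715 to 9081 and 8898 to 10089, of 14953 to 21885 and 16478 to 17839, and of 5576 to 6417 and 5801 to 6022 in the Cre control and the cKO in turn. The meninges list also overlapped, at 66558 to 100861 and 98369 to 104165. The endothelial list summed to 18345 to 23123 in the Cre control and 23169 to 24253 in the cKO, just above it in all libraries. Lower in all cKO libraries were the neural crest list, at 12701 to 13943 against 10589 to 11035, and the forebrain list, at 15525 to 19237 against 13282 to 14237. The members of these lists that fell past the adjusted p were Tfap2b and Pou4f1 in the former and Lhx2 and Lhx9 in the latter. All of them are also genes of midbrain neurons, so these sums do not measure other tissue alone. The part of these cells in the results below was not tested other than by the covariate fits given beside the erythroid and surface ectoderm genes.

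**Figure D1:**
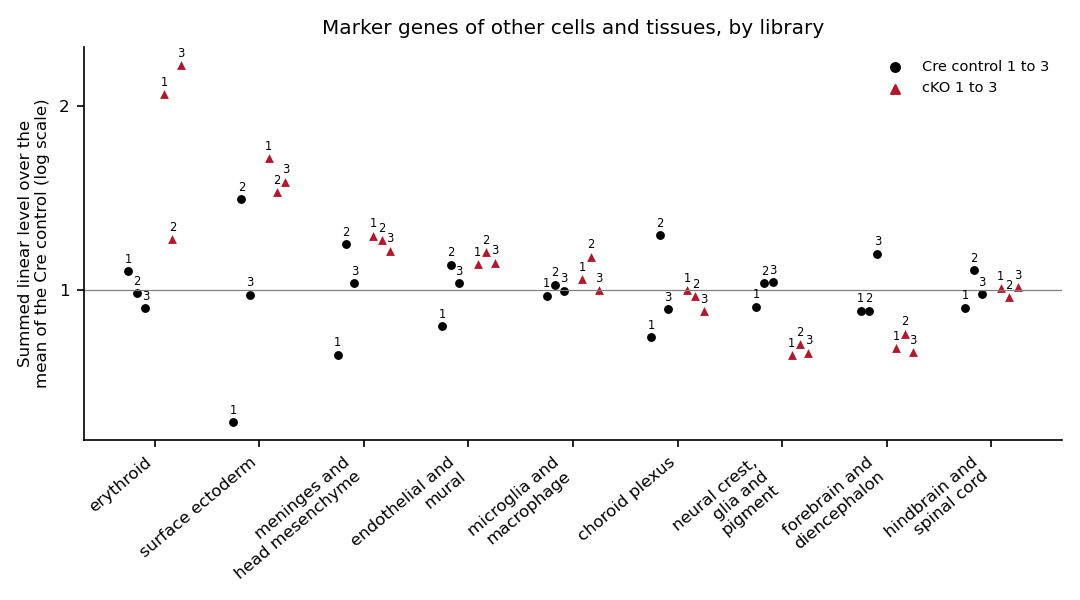
Summed linear level of the marker genes of 9 other cell types or tissues in each of the 6 libraries, divided by the mean of the 3 Cre control libraries (y axis, log scale), with the replicate number above each point. Circles are Cre control and triangles cKO libraries; cKO 2 lies close to the Cre control in erythroid genes, and Cre control 1 is the lowest library in surface ectoderm and meningeal genes.

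A differentially expressed gene (DEG) had an adjusted p under 0.05 by limma, with Benjamini-Hochberg adjustment over all genes tested, and a fold change over 1.5. There were 79 DEGs (0.563% of the genes tested), of which 47 were higher in the cKO (0.335%) and 32 lower (0.228%). Regardless of fold, 1363 genes passed the adjusted p (9.72%), 682 higher (4.86%) and 681 lower (4.85%), with a median absolute log2 fold change of 0.28. With the libraries centred on their medians, 532 were higher and 831 lower, so that 39.0% of the calls were higher. The median log2 fold change of all genes tested was 0.01. In all 79 DEGs the 3 cKO libraries lay outside the range of the 3 Cre control libraries, as they did for 17.8% of all genes tested above it and for 13.7% below it. Leaving out 1 library at a time gave between 53 DEGs (without cKO 1) and 111 (without Cre control 1), and between 237 and 3292 genes passing the adjusted p in the same pair of fits. Of the 79 DEGs, 52 passed the adjusted p in all 14 other fits planned and 32 also stayed past the fold change in all of them. A further fit, with globin levels as a covariate, left 5 genes past the adjusted p, all of them DEGs, and is given with the erythroid genes. Counts of list members that rose or fell below are to be read beside the 4.86% and 4.85% of all genes.

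**Figure D2:**
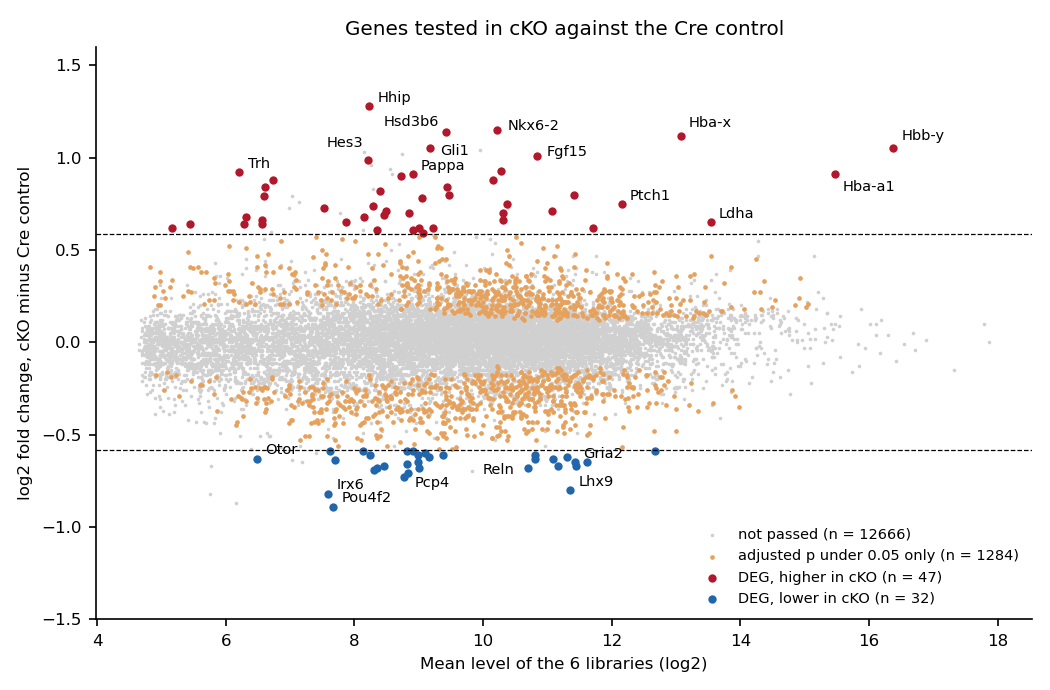
Log2 fold change of cKO over Cre control (y axis) against the mean log2 level of the 6 libraries (x axis) for the 14029 genes tested. Dashed lines mark a fold change of 1.5 in either direction; red and blue points are the 47 higher and 32 lower DEGs, orange points are genes that passed the adjusted p alone, and the largest rises are Hhip at 1.28 and Nkx6-2 at 1.15.

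Genes known as targets of Shh signaling were among the largest rises, and whether they rose as direct targets was not tested. Of 21 hedgehog target genes tested, 12 rose past the adjusted p (57.1%, beside 4.86% of all genes) and 0 fell. Their median log2 fold change was 0.27 beside 0.01 over all genes, and 8 of them were DEGs. The number that rose was 8 without Cre control 3 and 10 without cKO 1, cKO 2 or Cre control 2. It was 2 with the globin covariate and 8 with the surface ectoderm covariate, both described at the end. The study chose 5 of the target genes on the same samples for its heat map, so the count of this list is not independent evidence of the direction. Other lists below also hold genes of that heat map, among them Fgf15, Hes3, Fam181b, Pappa, Crabp1, Pcp4, Gria2 and Negr1. The same limit holds for the counts of those lists. Gli1 (chromosome 10, 127329882 to 127341974), the transcription factor most used as a readout of the pathway, was at 8.66, 8.60 and 8.69 in Cre controls 1 to 3 and at 9.80, 9.60 and 9.69 in cKO 1 to 3, a 2.07-fold rise (standard error 0.0646 on the log2 scale, adjusted p = 7.49e-05 by limma). Each cKO library was about 1 log2 unit above each Cre control library. Hhip (chromosome 8, 79965851 to 80058006), which binds and traps hedgehog ligands, was at 7.53, 7.68 and 7.56 and at 9.01, 8.80 and 8.81, a 2.43-fold rise (standard error 0.0796, adjusted p = 7.49e-05 by limma), the largest of any gene tested.

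The receptor of hedgehog ligands rose too. Ptch1 (chromosome 13, 63508328 to 63573598) was at 11.65, 11.81 and 11.89 in the Cre control and at 12.54, 12.51 and 12.54 in the cKO, a 1.68-fold rise (adjusted p = 5.06e-04 by limma). Its spread was smaller in the cKO (SD 0.017) than in the Cre control (SD 0.12).

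Homeodomain genes that mark ventral progenitors of the neural tube were the next group of targets. Nkx6-2 (chromosome 7, 139579376 to 139582797) was at 9.77, 9.38 and 9.76 in the Cre control and at 10.77, 10.69 and 10.90 in the cKO, a 2.22-fold rise (adjusted p = 0.00118 by limma). Cre control 2 was the lowest library and no library of 1 group reached the other. Nkx2-9 (chromosome 12, 56611389 to 56613284) was at 6.37, 6.11 and 6.26 and at 6.82, 7.08 and 6.76, and rose 1.56-fold (adjusted p = 0.00814 by limma). Nkx2-2 (chromosome 2, 147177546 to 147194243) was at 8.47, 8.72 and 8.88 and at 9.35, 9.17 and 9.40, and rose 1.54-fold (adjusted p = 0.0119, 0.0498 at the highest over the 14 planned fits, and 0.582 and 0.0937 with the globin and surface ectoderm covariates described at the end). Nkx6-1 rose by 0.34 in log2 units (limma adjusted p = 0.0138), though not without Cre control 3 (adjusted p = 0.052). Foxa2, the factor of the floor plate, was at 8.86 to 9.25 in the Cre control and at 9.05 to 9.57 in the cKO and did not pass (0.24, adjusted p = 0.292). Of the other targets tested, Ccnd1, which encodes cyclin D1, had a log2 fold change of -0.05 (adjusted p = 0.718) and Mycn of 0.07 (adjusted p = 0.434).

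The components that carry the hedgehog signal stayed near 0. Of 29 tested, from the ligand and its receptors to protein kinase A subunits and the Gli factors, 1 rose and 1 fell past the adjusted p, and their median was -0.02. Shh, the ligand, had a log2 fold change of -0.09 (standard error 0.132, adjusted p = 0.676 by limma), Gli2 of 0.20 (standard error 0.0874, adjusted p = 0.168), Gli3 of -0.14 (standard error 0.0901, adjusted p = 0.327) and Smo, the signal transducer that Ptch1 restrains, of 0.16 (standard error 0.0469, adjusted p = 0.0587). The gene that rose was Kif7, a ciliary kinesin that organizes Gli at the cilium tip (0.21, adjusted p = 0.0418), and the one that fell was Cdon, a co-receptor (-0.32, adjusted p = 0.02). Both calls were lost without cKO 2 or 3 or Cre control 2 or 3, and that of Kif7 also without cKO 1, with adjusted p up to 0.144 for Kif7 and 0.0619 for Cdon. Of 52 genes of the cilium, 0 passed the adjusted p in either direction by limma, and their median was 0.04. Without Cre control replicate 1, 5 of them rose and 2 fell.

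RefSeq promoter windows (GRCm38.p6, 250 bases before to 50 after the start) were searched for the Gli binding letters GACCACCCA on both strands. They occur in 83 of all 32851 windows (0.253%). None of the 15 windows held for 12 of the 21 target genes has them, nor does any of the 38 windows held for 33 of the 47 higher DEGs. The shorter core CCACCC was in 7 of the 15 windows (46.7%), in 18 of the 38 (47.4%) and in 31.5% of all windows. It was also in 22 of 46 windows of the lower DEGs (47.8%) and in 37.5% of the windows of genes tested. The core thus does not set the higher DEGs apart from the lower ones. The lack of a match says only that the longer letters are not in these windows.

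**Figure D3:**
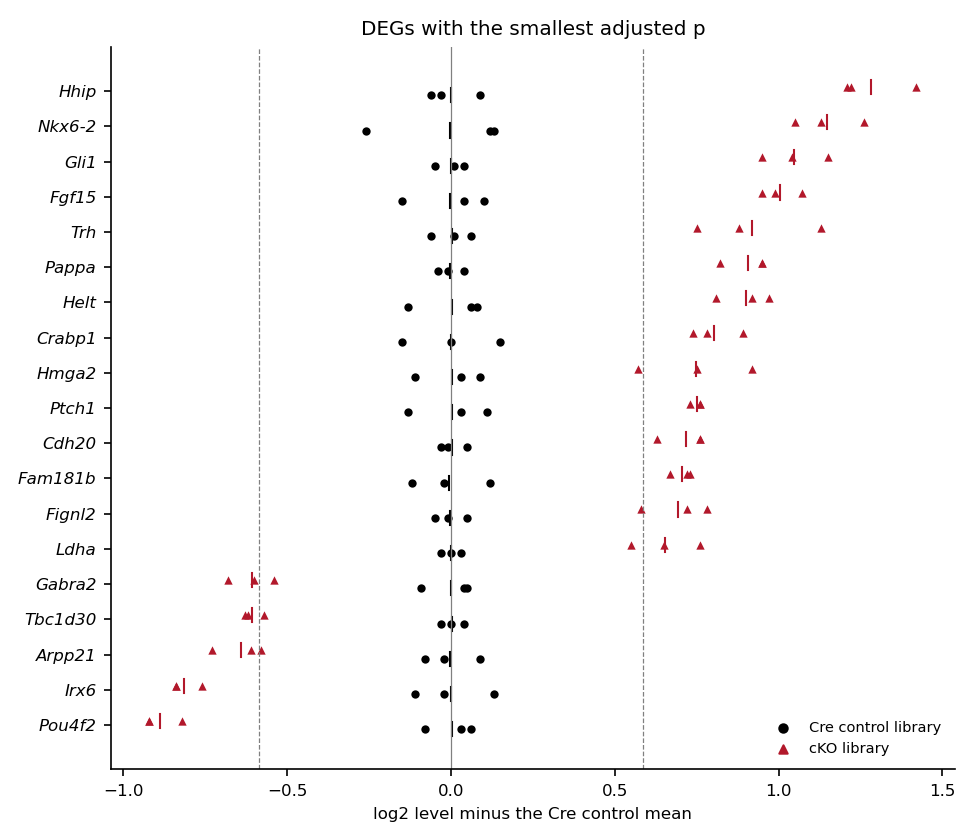
Log2 level of 19 of the 20 DEGs with the smallest adjusted p in each library, minus the mean of the Cre control (x axis). Circles are the 3 Cre control libraries, triangles the 3 cKO libraries, short bars the group means and dashed lines a fold change of 1.5; in each of these genes all cKO libraries lie to 1 side of all Cre control libraries.

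Several Fgf ligands and feedback genes rose, while the Etv feedback genes did not pass. Of 23 genes of Fgf signaling, 9 rose and 0 fell, with a median of 0.14, and the count of risen genes was 4 without Cre control 3. Fgf15 (chromosome 7, 144896531 to 144900953), a secreted ligand that is also a hedgehog target, was at 10.43, 10.37 and 10.18 in the Cre control and at 11.40, 11.28 and 11.32 in the cKO, a 2.01-fold rise (standard error 0.0797, adjusted p = 4.52e-04 by limma). Fgf17 (chromosome 14, 70636203 to 70642268), a ligand of the isthmus, was at 9.32, 9.0 and 8.91 and at 9.62, 9.90 and 10.10, a 1.74-fold rise (adjusted p = 0.0135), and did not pass without Cre control 3 (adjusted p = 0.0521). For Fgf17 the lowest cKO library and the highest Cre control library, which both carry the number 1, were 9.62 and 9.32. Fgf18 rose by 0.46 (adjusted p = 0.00789) and Il17rd, a membrane antagonist of the Fgf receptors, by 0.48 (adjusted p = 0.0121), and both passed in all 14 planned fits. Fgf8 had a log2 fold change of 0.55 (adjusted p = 0.0278), which the loss of Cre control 2 or 3 or of cKO 2 or 3 ended (adjusted p = 0.0767, 0.0922, 0.0836 and 0.0732 in turn). The feedback genes of the Etv family did not pass, with 0.14 for Etv1, 0.04 for Etv4 and -0.02 for Etv5 (adjusted p = 0.188, 0.857 and 0.904 by limma).

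Other genes of the isthmus shared this direction in part. Of 20 tested, 7 rose and 1 fell, with a median of 0.07, and without Cre control 3 the number that rose was 3. Hes3 (chromosome 4, 152285972 to 152291662), a repressor of neuronal differentiation that marks the isthmus, was at 8.03, 7.57 and 7.57 in Cre controls 1 to 3 and at 8.71, 8.75 and 8.68 in cKO 1 to 3, and its 1.99-fold rise (adjusted p = 0.00183 by limma) was carried by Cre controls 2 and 3 more than by Cre control 1. Sp8 (chromosome 12, 118846329 to 118852576), a zinc finger factor that acts with Fgf8, rose 1.51-fold (adjusted p = 0.00676). The homeodomain genes that place the midbrain and the isthmus did not pass: En1 was at -0.05 (standard error 0.109, adjusted p = 0.785), En2 at -0.06 (standard error 0.107, adjusted p = 0.733), Otx2 at -0.11 (standard error 0.0678, adjusted p = 0.306) and Gbx2 at -0.04 (adjusted p = 0.85) on the log2 scale. En1, En2 and Otx2, which define the midbrain, were well detected in all 6 libraries, at 10.50 to 10.97, 12.17 to 12.63 and 11.31 to 11.58, as the labelled tissue calls for.

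Genes of the Wnt pathway went both ways. Of 38 ligands, receptors and antagonists, 5 rose and 3 fell (median 0.08), and of 20 targets of beta-catenin, 4 rose and 1 fell (median 0.14). The numbers that rose were 2 and 1 without Cre control 3 and 3 and 2 without cKO 2, and those that fell were 1 and 0 without cKO 1 or 3 or Cre control 2 or 3. Frzb, a secreted antagonist, rose 1.67-fold, from 7.82, 8.02 and 7.93 to 8.85, 8.65 and 8.49 (adjusted p = 0.00351 by limma). Notum, an enzyme that inactivates Wnt ligands and is itself a target, was at 6.27, 6.18 and 6.13 and at 6.65, 7.01 and 7.30, a 1.73-fold rise (adjusted p = 0.0111). Fzd9, a receptor, rose by 0.43 in log2 units (limma adjusted p = 0.00425). Draxin, an antagonist and guidance molecule, fell, from 11.85, 11.93 and 11.88 to 11.40 in each cKO library (-0.49, adjusted p = 0.0016). Axin2, the general target of the pathway, was lower by 0.14 (adjusted p = 0.0477), a call lost in 10 of the 14 alternatives, and Lef1 was at -0.23 (adjusted p = 0.111). Wnt9b, a ligand of the surface ectoderm, was at 5.97, 6.59 and 6.32 in the Cre control and at 7.19, 7.12 and 7.21 in the cKO (1.84-fold, adjusted p = 0.00613).

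Of 28 genes of the Notch pathway, 6 rose and 0 fell, with a median of 0.07. Without cKO 1 or 2 or Cre control 2 or 3, 2 of them rose, and without Cre control 1, 7 rose and 4 fell. Nrarp, a target that feeds back on Notch, rose by 0.37 (adjusted p = 0.00693) and passed in all 14 planned fits. Hes1 and Hes5, the main effectors in neural progenitors, were at 0.15 and 0.21 (adjusted p = 0.114 and 0.149 by limma).

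Transcription factors of dorsal midbrain neurons were among the largest falls. Of 39 dorsal midbrain genes tested, 4 rose and 8 fell, with a median of -0.09, and 2 rose and 5 fell without Cre control 3. Pou4f2 (chromosome 8, 78433010 to 78436645), also called Brn3b, a POU factor of tectal projection neurons, was at 8.03, 8.17 and 8.14 in the Cre control and at 7.19, 7.19 and 7.29 in the cKO, a 1.85-fold fall (standard error 0.0921, adjusted p = 0.00149 by limma), the largest fall among the DEGs. The related Pou4f1 fell 1.52-fold (adjusted p = 0.00896) and Pou4f3 by 0.45 in log2 units (limma adjusted p = 0.0138), which did not pass without Cre control 3 (adjusted p = 0.0538).

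Tfap2d (chromosome 1, 19103022 to 19166346), an AP-2 factor of the tectum, was at 9.36, 9.18 and 9.47 and at 8.65, 8.75 and 8.58, a 1.6-fold fall (adjusted p = 0.00304 by limma). Its relative Tfap2b was at 12.35, 12.49 and 12.53 and at 11.92, 11.87 and 11.86, and fell by 0.57 (adjusted p = 0.00462). Lhx9 (chromosome 1, 138825186 to 138848577) and Lhx2 (chromosome 2, 38339281 to 38369733), LIM homeodomain factors of dorsal midbrain and diencephalic neurons, fell 1.74-fold and 1.59-fold (adjusted p = 0.00183 and 0.0024), Lhx9 from 11.80, 11.60 and 11.84 to 10.96, 10.98 and 10.90 and Lhx2 from 11.62, 11.31 and 11.56 to 10.89, 10.82 and 10.77. In each of these factors the highest cKO library was below the lowest Cre control library. Irx6 (chromosome 8, 92674288 to 92680956), an Iroquois homeodomain factor, fell 1.76-fold, from 8.13, 7.98 and 7.89 to 7.24, 7.16 and 7.16 (adjusted p = 7.28e-04). In tissue RNA, fewer cells of a type and less RNA per cell cannot be told apart.

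Slc17a6, the vesicular glutamate transporter, fell by 0.47 (adjusted p = 0.0155), and did not pass without cKO 1 or Cre control replicate 3 (adjusted p = 0.0652 and 0.0524). The genes of GABA synthesis and transport, Gad1, Gad2 and Slc32a1, were at -0.11 (standard error 0.107), -0.00 (standard error 0.088) and 0.08 (standard error 0.114) in log2 units (limma adjusted p = 0.52, 0.999 and 0.66). Helt (chromosome 8, 46292039 to 46294671), a basic helix-loop-helix factor that directs midbrain progenitors to the GABA lineage, was at 8.33, 8.14 and 8.35 in the Cre control and at 9.24, 9.08 and 9.19 in the cKO, a 1.86-fold rise (adjusted p = 0.00167). Gata2, which acts after Helt, had a log2 fold change of 0.26 (adjusted p = 0.0177, but 0.0673 without cKO 1, 0.0516 without Cre control 2 and 0.0549 without Cre control 3), and Gata3 and Tal2, which also act there, were at 0.01 and 0.02 (adjusted p = 0.965 and 0.942). Whether the GABA genes differ from the glutamate genes in their change was not tested.

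Of 24 genes of the ventral midbrain, 4 rose, the Nkx genes above, and 4 fell, with 11 that fell without Cre control 1. Besides Pou4f1, those that fell were genes of dopamine neurons: Th, which encodes tyrosine hydroxylase (-0.45, adjusted p = 0.0273), Pitx3 (-0.40, adjusted p = 0.0265) and the dopamine transporter Slc6a3 (-0.37, adjusted p = 0.0174). Th was at 8.11, 8.38 and 8.44 in the Cre control and at 7.68, 8.03 and 7.88 in the cKO, with cKO 2 just below Cre control 1. Each of the 3 calls was lost without cKO 1 (adjusted p = 0.102, 0.107 and 0.0716) and without Cre control 2 or 3, and Th and Pitx3 also without cKO 3. Nr4a2 and Foxa1, factors of the same lineage, were at -0.26 and -0.38 (adjusted p = 0.103 and 0.224).

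Genes that were DEGs in no pathway above included several among the smallest adjusted p. Pappa (chromosome 4, 65124174 to 65357509), a protease that frees insulin-like growth factors from their binding proteins, was at 8.49, 8.44 and 8.41 in the Cre control and at 9.40, 9.40 and 9.27 in the cKO, a 1.88-fold rise (standard error 0.0563, adjusted p = 7.49e-05 by limma). Of 20 genes of the insulin-like growth factors, 7 rose and 1 fell, with a median of 0.22, and 2 rose without cKO 1 or without cKO 2 and 3 without Cre control 3. Among those that rose was Igf2bp2, which binds Igf2 mRNA (0.40, adjusted p = 0.00988). Igfbpl1 fell by 0.33 in log2 units (limma adjusted p = 0.00549). Crabp1 (chromosome 9, 54764748 to 54773110), which binds retinoic acid in the cytoplasm, rose 1.74-fold, from 11.01, 11.16 and 10.86 to 11.79, 11.90 and 11.75 (adjusted p = 9.24e-04). Cyp26b1, the enzyme that degrades retinoic acid, was at 11.81, 12.11 and 11.41 and at 11.03, 11.11 and 11.18, a 1.59-fold fall (adjusted p = 0.0314) that did not pass without cKO 1, 2 or 3 or Cre control 2 (adjusted p = 0.118, 0.0789, 0.058 and 0.0716).

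Trh (chromosome 6, 92242061 to 92244650), the precursor of thyrotropin-releasing hormone, was at 5.81, 5.76 and 5.69 and at 6.5, 6.88 and 6.63, a 1.89-fold rise (adjusted p = 9.24e-04 by limma). Dio2, which activates thyroid hormone, rose 1.53-fold (adjusted p = 0.00814). Cdh20, a cadherin, was at 8.13, 8.19 and 8.11 and at 8.77, 8.90 and 8.90, and rose 1.64-fold (adjusted p = 4.52e-04). All 3 of these passed in all 14 planned fits. Fignl2, an ATPase of the fidgetin family, was at 8.07, 8.17 and 8.11 and at 8.90, 8.84 and 8.70, and rose 1.62-fold (adjusted p = 7.33e-04). Tbc1d30, which carries a domain that inactivates Rab GTPases, was at 9.65, 9.72 and 9.68 and at 9.06, 9.05 and 9.11, and fell 1.53-fold (adjusted p = 8.86e-04). Its SD was 0.033 in the Cre control and 0.029 in the cKO.

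Progenitor genes rose more often than they fell. Of 37 tested, 13 rose and 2 fell, with a median of 0.17, and 6 rose without cKO 1. Fam181b is among the genes the study chose for its heat map on the same samples. Fam181b was at 10.83, 10.59 and 10.69 in the Cre control and at 11.44, 11.38 and 11.43 in the cKO, a 1.64-fold rise (adjusted p = 4.52e-04 by limma). Hmga2, a chromatin protein of early stem cells, was at 10.08, 10.02 and 9.88 and at 10.91, 10.74 and 10.56, a 1.68-fold rise (adjusted p = 0.00171). In both genes all cKO libraries were above all Cre control libraries. Nes and Sox1, markers of neural progenitors, rose by 0.45 and 0.41 in log2 units (limma adjusted p = 0.00749 and 0.00545) and passed in all 14 planned fits. Id4 and Ptn were the members that fell, by 0.34 and 0.33 (adjusted p = 0.0191 and 0.0392). Neither passed without cKO 1 or 2 or Cre control 3, with adjusted p up to 0.0767 for Id4 and 0.151 for Ptn, and Ptn also not without cKO 3 or Cre control 2. Pax6, Sox9 and Fabp7, which mark radial glia, were at 0.15, 0.11 and -0.09 (adjusted p = 0.344, 0.277 and 0.553).

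**Figure D4:**
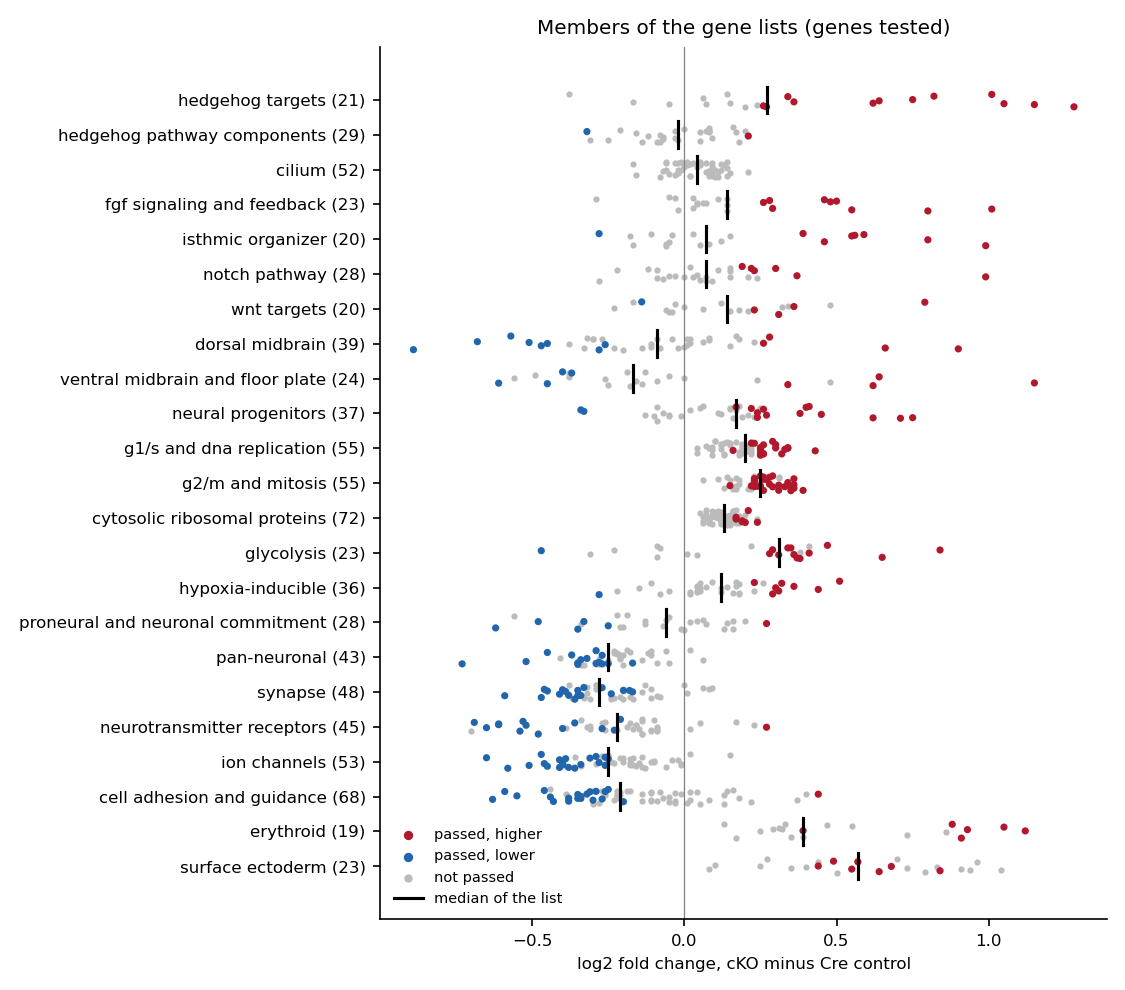
Log2 fold change of cKO over Cre control (x axis) for each tested member of 23 gene lists (number tested in brackets). Red and blue points passed the adjusted p as higher or lower, grey points did not, and the black bars are list medians, which run from -0.28 for synapse genes to 0.57 for surface ectoderm genes.

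The genes of the G1/S and G2/M lists were all on the positive side. Of 55 genes of G1/S and DNA replication, 18 rose and 0 fell, and of 55 genes of G2/M and mitosis, 27 rose and 0 fell. All 55 of each list had a log2 fold change above 0, with medians of 0.20 and 0.25. The counts that passed depended on single libraries: 41 and 49 rose without Cre control 1, and 1 and 6 without cKO 1. Aurka, Plk1, Cdc20, Kif20a, Tpx2 and Ccnb2, which drive entry into and passage through mitosis, rose by 0.35 to 0.39 on the log2 scale and passed in all 14 planned fits (adjusted p = 0.0065 for Cdc20 to 0.0121 for Ccnb2 by limma). Cdc20 was at 11.13, 10.96 and 11.04 in the Cre control and at 11.48, 11.40 and 11.34 in the cKO. Chaf1a, of the complex that loads histones onto new DNA, rose by 0.30 (adjusted p = 0.0121) and was the member of the replication list that passed in all 14 planned fits. None of the cell cycle genes reached a fold change of 1.5. Mki67 and Pcna, widely used markers of dividing cells, were at 0.25 and 0.20 (adjusted p = 0.0542 and 0.131).

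The promoter windows of the mitotic genes share sequence that the comparison did not use. The letters TTTGAA, the core of the cell cycle homology region bound in late cell cycle genes, were searched on both strands, as were CCAAT, bound by NF-Y, and TTTCCCGC, an E2F site. TTTGAA was in 36 of 51 windows of the G2/M list (70.6%), in 17.9% of all windows and in 11.9% of those of genes tested. In the members that rose it was in 21 of 25 windows (84.0%) and CCAAT in 19 (76.0%). CCAAT was in 39 of the 51 (76.5%) and in 37.4% of all and of genes tested. Both together were in 31 (60.8%), in 6.95% of all and in 4.82% of genes tested. TTTCCCGC was in 8 of 54 windows of the replication list (14.8%), in 1.07% of all and in 1.86% of genes tested. The 4 stretches here are from members that rose, with the letters searched in capitals and all bases upstream of the start.
Cdc20 (chr4:118437344-118437433, minus strand): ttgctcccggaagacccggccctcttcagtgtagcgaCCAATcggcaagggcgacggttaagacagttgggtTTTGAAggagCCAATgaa
Ccnb2 (chr9:70421635-70421724, minus strand): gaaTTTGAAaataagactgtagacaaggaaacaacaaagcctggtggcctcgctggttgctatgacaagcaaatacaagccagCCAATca
Ube2c (chr2:164769839-164769928, plus strand): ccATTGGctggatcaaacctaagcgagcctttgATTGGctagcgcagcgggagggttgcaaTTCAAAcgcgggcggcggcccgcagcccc
Cdc6 (chr11:98907972-98908061, plus strand): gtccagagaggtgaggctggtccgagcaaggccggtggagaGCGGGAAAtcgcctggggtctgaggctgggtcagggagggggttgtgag
In Ube2c and Cdc6 the capitals are on the reverse strand. Ube2c rose by 0.35 (limma adjusted p = 0.0229) and Cdc6 by 0.34 (0.0361), and both calls were lost without cKO 1 or 2 or Cre control 2 or 3 (adjusted p up to 0.0931 and 0.109). The letters were chosen as sites of cell cycle genes, so their shares describe the lists and not a change in the cKO. A match of letters is a description and not a bound site.

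Genes of ribosomes were positive as well. All 72 cytosolic ribosomal protein genes had a log2 fold change above 0, with a median of 0.13, and 7 rose past the adjusted p. That count was 69 without Cre control 1 and 0 with the 6 libraries alone in the fit. Of 39 genes of ribosome biogenesis 7 rose (17.9%) and 0 fell (median 0.13). Of 78 mitochondrial ribosomal protein genes 4 rose and 0 fell (median 0.07), and that 5.13% was near the 4.86% of all genes that rose. Without cKO 1 these counts were 1 and 0, and without Cre control 1 they were 18 and 28. Of the remaining lists, to be read beside the 4.86% of all genes that rose and the 4.85% that fell, 3 of 31 genes of BMP and TGF-beta signaling rose and 2 fell (median 0.08), 3 of 23 p53 targets rose and 2 fell (median 0.10), and 3 of 17 immediate early genes (median 0.07), 3 of 20 histones (median 0.09), 2 of 17 cyclins and cyclin-dependent kinase inhibitors (median 0.06) and 2 of 24 genes of cholesterol synthesis (median 0.05) rose and 0 fell. Without cKO 1 the numbers that rose were 1 for histones and 0 for the other lists of that sentence. Of 15 neuropeptides 1 rose and 4 fell (median -0.19), and 0 fell without cKO 1. Of 56 nuclear genes of oxidative phosphorylation, 1 rose and 0 fell, with a median of 0.04.

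Glycolysis was the metabolic group with the largest changes. Of 23 genes, 12 rose and 1 fell, with a median of 0.31, and 7 rose without cKO 1. Ldha (chromosome 7, 46841475 to 46855627), which turns pyruvate into lactate, was at 13.18, 13.21 and 13.24 in the Cre control and at 13.97, 13.86 and 13.76 in the cKO, a 1.57-fold rise (standard error 0.0514, adjusted p = 4.52e-04 by limma). Its highest library was cKO 1 and its groups were apart. Slc16a3, the transporter that exports lactate, was at 8.71, 9.22 and 9.13 and at 9.89, 9.98 and 9.72, a 1.79-fold rise (adjusted p = 0.0079).

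Along the pathway, Pgk1, Pgam1 and Tpi1 rose by 0.47, 0.37 and 0.36 in log2 units (limma adjusted p = 5.77e-04, 0.00134 and 0.00183) and passed in all 14 planned fits. The study chose 5 members of this list on the same samples, Ldha, Pgk1, Pgam1, Tpi1 and the row named Gapdh-ps15. That last row carries a pseudogene's name and may hold reads of a near-identical copy, so its rise of 0.35 is uncertain. The member that fell was Pfkp, the platelet form of phosphofructokinase (-0.47, adjusted p = 0.0219), with 10.70, 10.99 and 10.94 in the Cre control and 10.26, 10.44 and 10.50 in the cKO. Its call was lost without cKO 1 or 2 or Cre control 2 or 3 (adjusted p = 0.0893, 0.0534, 0.0632 and 0.0799). Aldoc and Eno2, forms of the enzymes found in differentiated neural cells, were at -0.31 and -0.23 (adjusted p = 0.226 and 0.193).

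Of 36 genes inducible by hypoxia, 8 rose and 1 fell (median 0.12), and without Cre control 3, 2 rose. Egln3, an oxygen-sensing prolyl hydroxylase, rose by 0.44 and Mif, a cytokine, by 0.30 (adjusted p = 0.0027 and 0.00676), and both passed in all 14 planned fits. Vegfa, the main angiogenic target, was at 0.02 (standard error 0.0499, adjusted p = 0.843) and Ndrg1 at -0.22 (adjusted p = 0.149). The letters ACGTG, the core of the hypoxia response element, were in 16 of 33 windows of the glycolysis list (48.5%) and in 19.6% of all windows, both strands searched. Among the glycolysis members that passed in either direction they were in 8 of 17 windows (47.1%). The windows of Ldha and Pgk1 show the letters in capitals.
Ldha (chr7:46845616-46845705, plus strand): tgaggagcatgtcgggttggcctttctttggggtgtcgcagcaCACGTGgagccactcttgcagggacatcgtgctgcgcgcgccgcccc
Pgk1 (chrX:106186907-106186996, plus strand): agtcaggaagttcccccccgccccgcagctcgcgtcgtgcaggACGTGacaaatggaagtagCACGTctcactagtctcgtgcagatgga
In Ldha the letters overlap on the 2 strands, and in Pgk1 the second run is on the reverse strand. The same core is in 24.4% of the windows of all genes tested.

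Neuronal genes were mostly on the negative side. Of 43 pan-neuronal genes, 15 fell and 0 rose, with a median of -0.25, and of 48 synaptic genes, 18 fell and 0 rose, with a median of -0.28. Of 53 ion channel genes, 20 fell and 0 rose (median -0.25), of 45 neurotransmitter receptors 13 fell and 1 rose (median -0.22), and of 68 genes of cell adhesion and axon guidance 20 fell and 1 rose (median -0.21). Without cKO replicate 1 the counts that fell were 1, 2, 2, 5 and 7, and without Cre control 1 they were 36, 37, 31, 27 and 41. The medians of these 5 lists stayed below 0 in every alternative run.

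Pcp4, a calmodulin-binding peptide, was at 9.12, 9.19 and 9.09 in the Cre control and at 8.25, 8.42 and 8.55 in the cKO, a 1.65-fold fall (adjusted p = 0.0024 by limma). Gabra2, a subunit of the GABA-A receptor, was at 8.59, 8.46 and 8.60 and at 7.87, 8.01 and 7.95, and fell 1.52-fold (adjusted p = 0.00132). Among receptors, Gria2, the AMPA receptor subunit that limits calcium entry, also fell, from 11.65, 11.78 and 11.80 to 10.97, 11.10 and 11.23 (1.56-fold, adjusted p = 0.0024), as did the metabotropic receptor Grm5 (1.62-fold, adjusted p = 0.0131). Grm5 did not pass without Cre control 3 (adjusted p = 0.052). Dlg2, a scaffold of the postsynapse, fell 1.5-fold (adjusted p = 0.00183).

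Arpp21, a phosphoprotein regulated by cyclic AMP, was at 7.93, 7.99 and 8.10 and at 7.28, 7.43 and 7.40, a 1.55-fold fall (adjusted p = 0.00134 by limma). Reln, a large extracellular protein that guides migrating neurons, was at 10.85, 11.10 and 11.16 and at 10.54, 10.30 and 10.24, a 1.6-fold fall (adjusted p = 0.00896). Negr1 and Cntnap4, cell adhesion molecules, fell 1.55-fold and 1.5-fold (adjusted p = 0.0024 and 0.00749). Cacna1e, a calcium channel subunit, fell by 0.58 (adjusted p = 0.0109). All of these passed in all 14 planned fits. Tubb3 and Map2, general markers of neurons, were at -0.22 and -0.21 (adjusted p = 0.0994 and 0.155), with overlapping groups: Tubb3 was at 15.01, 15.26 and 15.34 in the Cre control and at 14.90, 15.01 and 15.03 in the cKO.

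Proneural genes, which commit progenitors to neurons, fell more often than they rose. Of 28, 5 fell (17.9%, beside 4.85% of all genes tested) and 1 rose (3.57%, beside 4.86%), with a median of -0.06. Their difference from the neuronal lists was not tested. Those that fell, Myt1l, Ebf3, Dcx, Myt1 and Elavl2, act in newborn neurons, while Neurog1 and Neurog2, which act before them, were at 0.16 and 0.14 (adjusted p = 0.255 and 0.252 by limma). Without cKO 1, 0 of the 28 fell, and without Cre control 1, 9 did. Myt1l, from 11.33, 11.82 and 11.68 to 10.75, 11.15 and 11.06, was the DEG of this list (1.54-fold, adjusted p = 0.0218, and 0.078 without cKO 1, 0.0586 without Cre control 2 and 0.0773 without Cre control 3).

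The DEGs that fell were longer genes than those that rose, in the genome. The median genomic span in GENCODE M21 was 104.4 kb for the 32 lower DEGs, 12.1 kb for the 47 higher DEGs and 25.5 kb for the 13879 genes tested with 1 position. Over 100 kb were 16 of the 32 lower DEGs, 5 of the 47 higher DEGs (10.6%) and 15.8% of all genes tested. Among genes that passed the adjusted p alone the medians were 58.3 kb for lower and 17.9 kb for higher genes. Median transcript lengths were 2594, 1500 and 1563 bases for lower DEGs, higher DEGs and all genes, and the median GC contents 47.8%, 55.5% and 50.8%. With each library corrected for GC content and transcript length, the DEGs were 54 higher and 24 lower. GC content and length accounted for 1.65% (cKO 2) to 8.8% (Cre control 1) of a library's variance about the gene means, and their part in the result was not tested beyond this fit.

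**Figure D5:**
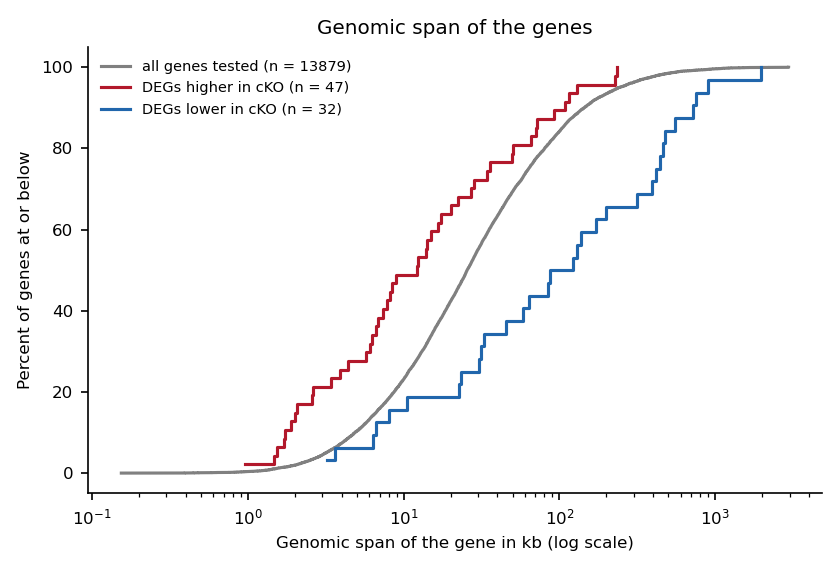
Cumulative share of genes (y axis, percent) by genomic span in kb (x axis, log scale) for the 47 DEGs higher in the cKO, the 32 DEGs lower in it and all 13879 genes tested that have 1 position in the annotation. The curve of the lower DEGs lies to the right, with a median of 104.4 kb against 12.1 kb for the higher DEGs.

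Around Gpr161 itself, 54 genes within 5 Mb on either side on chromosome 1 were tested. Of these 6 passed the adjusted p (11.1%, beside 9.72% of all genes) and 0 were DEGs.

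Erythroid genes rose with a large spread. Of 19 tested, 6 rose and 0 fell, all 19 were above 0, and their median was 0.39. Without cKO 1 or 3 or Cre control 2 or 3, 0 of them rose. The embryonic globin Hbb-y was at 15.97, 15.79 and 15.81 in the Cre control and at 17.19, 16.35 and 17.16 in the cKO, a 2.07-fold rise (adjusted p = 0.0298 by limma), and Hba-x was at 12.50, 12.53 and 12.50 and at 13.98, 13.09 and 13.83 (2.17-fold, adjusted p = 0.0225). Both were lowest of the cKO in cKO 2, and neither passed without cKO 1 or 3 or Cre control 2 or 3 (adjusted p up to 0.12 and 0.0925). Hba-a1 and Hbb-bh1 had the same order of libraries, and near-identical copies of globin genes can share reads, so the split between them is uncertain. Hsd3b6, a steroid dehydrogenase, had this pattern too, with 8.88, 8.74 and 8.97 in the Cre control and 10.36, 9.42 and 10.22 in the cKO (2.20-fold, adjusted p = 0.0215), and its call was lost in the same 4 fits (adjusted p up to 0.0865).

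With the mean of 5 globin genes entered as a covariate, an alternative chosen after seeing the data, 5 genes were DEGs, Hhip, Gli1, Pappa, Cdh20 and Trh, with log2 fold changes of 1.18, 0.89, 0.98, 0.80 and 1.08 (adjusted p = 0.0273, 0.0143, 0.0143, 0.0315 and 0.0488 by limma). These were also the only genes that passed the adjusted p in that fit. The globin mean was between 13.37 and 13.55 in the Cre control and at 14.62, 13.80 and 14.63 in cKO 1 to 3, above the Cre control in every cKO library, so it cannot be fully told apart from the genotype. In cKO 2, the library closest to the Cre control in globins, Gli1, Hhip and Ptch1 were at 9.60, 8.80 and 12.51. Ptch1 did not pass with the globin covariate (0.72, adjusted p = 0.0749 by limma). Whether the levels of these genes depend on globin content was not tested beyond the covariate fit.

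The other marker lists are to be read beside the 4.86% of all genes that rose and the 4.85% that fell. Of 28 endothelial genes 1 rose (3.57%, median 0.13), and of 30 meningeal genes 1 rose and 1 fell (3.33% each, median 0.20). For microglia, choroid plexus and hindbrain, 0 of 22, 0 of 14 and 0 of 17 genes passed (medians 0.03, -0.11 and 0.02). Of 17 neural crest genes 2 fell, Tfap2b and Pou4f1 (median -0.07), and of 16 forebrain genes 2 fell, Lhx2 and Lhx9 (median -0.13), all 4 of them genes of the midbrain as well.

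Surface ectoderm genes, chosen as a list after their values were seen, were above 0 in all 23 tested, with a median of 0.57. Among the DEGs were Krt19, a keratin of simple epithelia (1.55-fold, adjusted p = 0.0213), and Esrp2, a splicing factor of epithelia (1.6-fold, adjusted p = 0.013). Krt19 was at 5.72, 6.27 and 5.90 in the Cre control and at 6.81, 6.43 and 6.55 in the cKO, with Cre control 1 the lowest. Krt19 and Esrp2 did not pass without cKO 1 (adjusted p = 0.0829 and 0.0545) or without Cre control 3 (adjusted p = 0.0761 and 0.0509). Krt5, the keratin of basal skin cells, was at 8.12, 10.48 and 9.70 and at 10.54, 10.35 and 10.51, with overlapping groups (1.04 on the log2 scale, adjusted p = 0.151). With the mean of these genes as a covariate there were 89 DEGs, 36 higher and 53 lower, of which 45 were among the 79.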

How the data were processed

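RNA from E13.5 midbrain was extracted with Trizol and columns, and poly-A libraries were made with NEBNext Ultra and sequenced on an Illumina instrument. The authors deposited 1 table of normalized log2 values per gene. Per the submitters' processing notes the tools were FastQC 0.10.1, kallisto 0.46.1 and DESeq2, with mm10, and the exact transform is not given in the sources used here. No read counts were used, so depth and its precision are unknown. Values are shrunk at low expression.

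A gene was tested if it had a name and its linear value reached 1 cpm in 3 or more libraries, and 118 rows with repeated names were left out. Number of value columns not mapped to a sample: 0. All 9 libraries were fitted in limma 3.58.1 (statmod 1.5.0, R 4.3.3) with group as the factor and a trended prior, without a replicate block, since the study's methods name none, and cKO was contrasted with the Cre control (two-sided, Benjamini-Hochberg adjustment over all 14029 genes). DEGs had a fold change over 1.5 together with an adjusted p under 0.05. On simulated data for this contrast, 99.5% of 200 genes changed by a log2 value of 1 were recovered, with 1 false DEG and 11 false genes by adjusted p alone among 14029 genes. The simulated noise was independent between genes, with no shift shared within a library. The real genes that passed had a median absolute log2 fold change of 0.28, so these rates do not measure the error of the real calls. Tables and figures were made with Python 3.11.15, numpy 2.4.6, pandas 2.3.3 and matplotlib 3.10.9.

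The comparison, its gene lists and tests were chosen with earlier results of these data known. Of the 20 DEGs with the smallest adjusted p, 19 are given in every library and 1 is not reported here, with the members of the lists that bear on each group of results. The alternatives were no filter, the 6 libraries alone, a replicate block, no trend, median centring, quantile normalization, a GC and length correction, a Y-linked covariate, other fold thresholds and leaving out each library. The globin and surface ectoderm covariates and leaving out both first replicates were chosen after seeing the data. Promoter windows and sequences are from RefSeq (GRCm38.p6) and gene positions from GENCODE M21 (GRCm38).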

Additional observations from a re-analysis of the deposited data

How the results depend on the processing

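The 79 DEGs became 498 at a lower fold threshold, 7 at a fold over 2 and 1 when limma tested against a fold of 1.5. Leaving out 1 library gave 53 to 111 DEGs, 30 to 61 higher and 18 to 69 lower, and 237 to 3292 genes passing the adjusted p, the lowest of these without cKO replicate 1 and the highest without Cre control replicate 1. Genes passing the adjusted p were 873 with no filter and 437 with the 6 libraries alone. Of the alternatives chosen after seeing the data, the globin covariate left 5 DEGs, 5 higher and 0 lower, with 5 genes passing the adjusted p, and turned Hba-a1, which is part of that covariate, to -0.01 (adjusted p = 0.994). The surface ectoderm covariate gave 53 lower DEGs and 458 genes passing, and leaving out both first replicates gave 2218 genes passing. With a replicate block there were 78 DEGs and 1774 genes passing. After each group's gene means were taken off, correlations of same-numbered libraries of the 2 groups were 0.26, 0.0865 and 0.171. Those of libraries with unlike numbers ran from -0.282 to 0.161, and 5 of the 6 libraries correlated best with their own number. These values do not settle whether the numbers pair the libraries, and the main fit used no pairing. Over 88 single genes and 14 other fits planned, 1115 of 1232 values kept their direction and call, 117 lost the call and 0 reversed. With 3 libraries per group and no counts, small changes of weakly expressed genes could not be resolved. The causes of these shifts were not tested.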
